A study of Mus musculus with 15 samples.

Results

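The libraries that carry replicate number 1 in the labels were set against those that carry number 2 or 3, to see which gene programmes of mouse embryonic stem cells (mESCs) moved together in same-numbered libraries whatever the genotype. Of the 15 RNA-seq libraries, 5 carried number 1, with 1 in each of 5 conditions, and 10 carried number 2 or 3. The labels and methods do not say what a shared number stands for, so a plating, a passage, a day or a library preparation cannot be told apart, and the libraries are called here by their number.

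All cells were v6.5, a male mESC line, grown on gelatin. The 5 conditions were wild-type cells with siGLO, a transfection control (WT siGLO), wild-type cells with an siRNA against Stag1 (WT siStag1), Stag1-/- cells with siGLO (Stag1-KO siGLO), Stag2-/- cells with siGLO (Stag2-KO siGLO) and Stag2-/- cells with the siRNA against Stag1 (Stag2-KO siStag1). Every well thus received siGLO or the siRNA, at 50 nM, and was collected 48 h later. Each knockout was a single CRISPR clone, so its replicates are repeated samples of 1 line. The p-values for genes below are set against the spread left between libraries after the terms of each fit. With a term for condition and a term for number 1, that spread includes variation of the number 1 difference between conditions. It also includes differences among the other libraries of a condition. If libraries that share a number were handled together, those with number 1 form 1 unit. The p-values then do not say whether another such unit would differ. STAG1 and STAG2 are alternative subunits of cohesin, the ring complex that holds sister chromatids together and shapes chromatin loops.

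An mESC culture is not a uniform state. Naive cells keep a network of pluripotency factors active under LIF, while some cells drift toward the formative epiblast or primitive endoderm, and rare cells enter a transient two-cell-like state. Growth is tied to nutrients through several sensors. MYC proteins drive ribosome production, ATF4 turns on amino acid uptake and synthesis genes when translation initiation is restrained, SREBP factors turn on sterol and lipid synthesis genes when cell sterols are low, and HIF factors turn on glycolytic and hypoxia genes when oxygen is low.

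Between 14982560 and 19070126 counts fell on genes per library, and 14508 of 23412 genes passed the expression filter and were tested. Number 1 libraries had 14982560 to 19005726 counts on genes and the others 16030901 to 19070126, and these ranges overlapped, as did the shares of reads that were unmapped, multimapping, ambiguous or outside genes. Of 9 library properties, the TMM scaling factor differed by number. It was 0.970 to 0.997 in number 1 libraries and 0.989 to 1.03 in the others, and lowest in number 1 in all 5 conditions (mean difference -0.0317, SD 0.0166 over conditions, two-sided exact permutation test over all arrangements within conditions, p = 0.00412, the smallest they can give; adjusted over the 9 properties, 0.0371). Normalized Stag2 counts were 662 to 939 in the 6 Stag2-KO libraries and 1631 to 2766 in the other 9, and Stag1 counts were 352 to 780 in the 6 siStag1 libraries and 1822 to 2364 in the other 9. The 3 Stag1-KO libraries lay among the latter, at 1822 to 2364, and that clone holds an in-frame deletion, so the count of Stag1 does not check the Stag1-KO label. Neither gene passed the test by number (Stag1 log2 fold change 0.00, SE 0.09, edgeR adjusted p = 0.981; Stag2 -0.12, SE 0.07, adjusted p = 0.249).

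After each gene was centred on its condition mean, libraries with the same number resembled each other across conditions. For the 10 pairs of number 1 libraries from different conditions, Pearson's r across the 14508 genes was 0.109 to 0.628 (median 0.242) and was above 0 in 10 of 10. Number 3 pairs gave 0.101 to 0.503 (median 0.257), also above 0 in 10 of 10. Number 2 pairs gave -0.0505 to 0.243 (median 0.0846), above 0 in 9 of 10. For each number the highest pair was Stag2-KO siGLO with Stag2-KO siStag1, conditions that share a clone. Pairs of a number 1 and a number 3 library were below 0 in all 20 cases (-0.566 to -0.0801). These values describe genes that share their libraries, and centring within a condition ties the 3 libraries of that condition to each other.

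The first principal component of the centred values held 36.5% of the variance, and the number 1 library had the highest score in all 5 conditions. Its scores were 14.1 in WT siGLO, 7.09 in WT siStag1, 12.5 in Stag1-KO siGLO, 39.2 in Stag2-KO siGLO and 39.0 in Stag2-KO siStag1. Number 3 libraries were lowest in all 5 conditions, at -7.64 to -26.4, and number 2 libraries lay between at 3.85 to -15.6. The number 1 libraries of both Stag2-KO conditions thus had the highest scores of all 15.

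**Figure D1:**
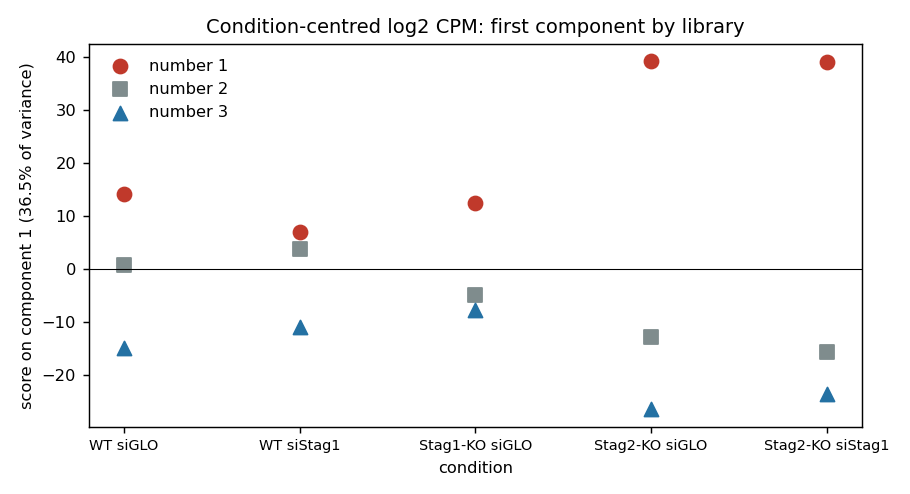
Scores of the 15 libraries on the first component of condition-centred log2 CPM (y axis) by condition (x axis), with colour and shape for the replicate number. Number 1 libraries are above 0 in every condition, and the scores of 39.2 and 39.0 in the Stag2-KO conditions are the highest.

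With condition as a block, 4244 of 14508 genes were differentially expressed between number 1 and numbers 2 and 3 by edgeR's quasi-likelihood test at a Benjamini-Hochberg adjusted p under 0.1. Of these, 2075 (14.3% of genes tested) were higher in number 1 and 2169 (15% of genes tested) were lower. With library size alone as the scaling, 33.1% of the calls were higher, against 48.9% with TMM, and the median of all genes moved from -0.0123 to -0.058 on the log2 scale. The median absolute log2 fold change was 0.299 among called genes, and 215 genes passed 1 on the log2 scale (65 higher and 150 lower). The number 1 library lay above both others in all 5 conditions at 953 genes (6.57%) and below both in all 5 at 771 genes (5.31%). All 5 number 1 libraries lay above all 10 others at 91 genes (0.627%) and below all 10 at 53 genes (0.365%). Called genes that were higher had a median mean normalized count of 1050, against 314 for those lower and 319 for genes not called. The median length of the longest transcript was 3127 bases for genes higher, 3764 for genes lower and 3278 for genes not called. Their part in the calls was not tested beyond a fit with offsets for GC content and length, which gave 4852 calls, 59% of them higher. Calls were spread over the genome, with 24.9% to 33.5% of genes called on each of the 20 chromosomes (1 to 19 and X).

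The number 1 difference was also taken within genotypes. In a fit on the 6 Stag2-KO libraries alone, 2631 genes (18.9% of 13916) were higher in number 1 and 2778 (20%) were lower. The 6 WT libraries alone gave 218 genes higher (1.57% of 13869) and 155 lower (1.12%). The 9 libraries without Stag2-KO gave 467 higher (3.31% of 14110) and 369 lower (2.62%). These fits were added after seeing the data. In the fit with a number 1 term for each condition, that term differed between Stag2-KO and WT at 871 genes (6% of 14508), and it differed among the 5 conditions in the joint test at 230 genes (1.59%). The Stag2-KO side of the 871 rests on the number 1 libraries of siGLO and siStag1 from a single clone. An effect of genotype and a culture shared by these libraries therefore cannot be told apart. Without the number 1 library of Stag2-KO siStag1 the whole comparison gave 2194 genes, and without that of Stag2-KO siGLO 2675. The gene lists below are therefore given for all 15 libraries and for the 9 without Stag2-KO, and each count reads against the share of all genes in the same fit and direction (14.3% higher and 15% lower with all 15 libraries, 3.31% and 2.62% without Stag2-KO, 18.9% and 20% in Stag2-KO alone, 1.57% and 1.12% in WT alone).

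**Figure D2:**
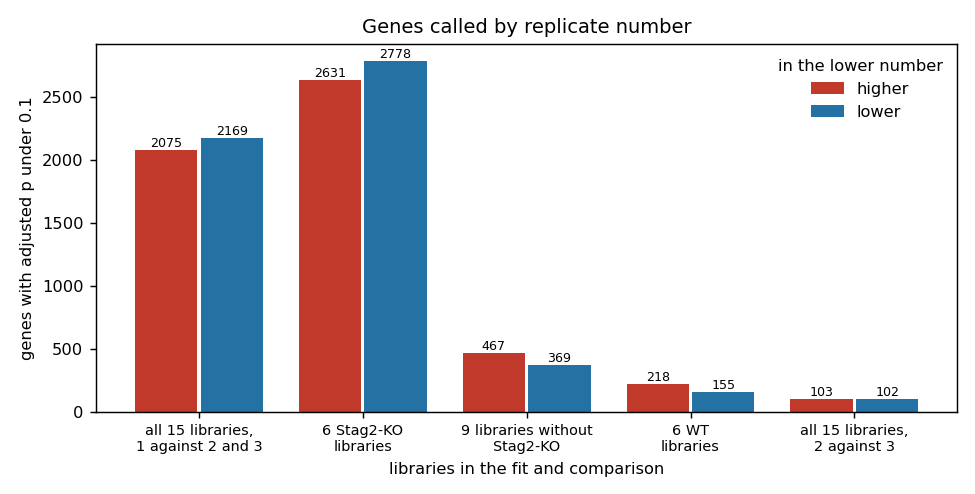
Number of genes at edgeR adjusted p under 0.1 (y axis), split into those higher and lower in the lower replicate number, for each set of libraries (x axis). The 6 Stag2-KO libraries gave 2631 and 2778 genes, against 218 and 155 for the 6 WT libraries.

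Most ribosome production genes were higher in number 1 libraries. Of 21 ribosome biogenesis genes, 17 were called higher and none lower, with a list median log2 fold change of 0.261, against -0.0123 over all genes tested. For 11 of the 21, the number 1 library was above both others in all 5 conditions. The 4 not called were Npm1, Dkc1, Gar1 and Gnl3. Without Stag2-KO, 6 of the 21 were called higher with a median of 0.215, and without the number 1 library of Stag2-KO siStag1 12 were. The 6 Stag2-KO libraries alone called all 21 (median 0.358). The largest differences were in Bop1 (log2 fold change 0.41, SE 0.06, edgeR adjusted p = 0.000488), Nop2 (0.40, SE 0.06, adjusted p = 0.000519) and Rrp12 (0.38, SE 0.06, adjusted p = 0.00129), which act in the maturation of ribosomal RNA and the large and small subunits. Nop2, an rRNA methyltransferase, had normalized counts of 4098, 3839, 4554, 4589 and 4387 in the number 1 libraries of WT siGLO, WT siStag1, Stag1-KO siGLO, Stag2-KO siGLO and Stag2-KO siStag1. The other 10 libraries had 2868 to 3681 (median 3273), so the groups did not overlap. Polr1a and Polr1b, the large subunits of RNA polymerase I, were higher by 0.26 (SE 0.06, adjusted p = 0.00787) and 0.33 (SE 0.06, adjusted p = 0.00155), and Ncl, the abundant nucleolar protein nucleolin, by 0.25 (SE 0.07, adjusted p = 0.0235). Without Stag2-KO, Polr1a (0.24, edgeR adjusted p = 0.106) and Ncl (0.23, adjusted p = 0.173) were not called, and Ncl lost its call without the number 1 library of Stag2-KO siStag1 (adjusted p = 0.107). Of 80 genes for the ribosomal proteins themselves, 3 were called higher (3.75%, against 14.3% of all genes) and none lower by edgeR (median 0.038), with 4 higher and 0 lower at an unadjusted p under 0.05 and the same by DESeq2. Those 3 were Rpl10l (0.61, SE 0.09, adjusted p = 0.000647) and Rpl7l1 (0.26, SE 0.06, adjusted p = 0.00697), both paralogs of core ribosomal proteins, and Rpl7a (0.12, SE 0.05, adjusted p = 0.0611). Rpl7a lost its call on leaving out any 1 of 6 libraries (adjusted p 0.108 to 0.182) and without Stag2-KO (adjusted p = 0.341), where 2 ribosomal protein genes were higher. In Stag2-KO alone 15 of 79 were higher and none lower, against 18.9% of all genes higher there. The count of 3 rose to 9 without Stag1-KO siGLO replicate 3 and to 11 without WT siStag1 replicate 1.

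Over all 15 libraries, ribosome biogenesis was the list of 10 or more genes with the largest share called in 1 direction, so promoters of its members are shown. Its share was 81%, against 80% for amino acid transporters and 79.2% for cholesterol synthesis and uptake. Without Stag2-KO its 6 of 21 was a smaller share than in several lists, such as hypoxia (10 of 16 lower) and amino acid transporters (6 of 10 higher). Of its 17 called members, 13 had a promoter in the RefSeq set of build GRCm38.p6 (250 bases before to 50 after the start), and the 3 with the largest differences are printed 5′ to 3′. Capitals mark CACGTG, the E-box that MYC and related proteins can bind, which reads the same on both strands.
Nop2, chr6:125131633-125131932, + strand: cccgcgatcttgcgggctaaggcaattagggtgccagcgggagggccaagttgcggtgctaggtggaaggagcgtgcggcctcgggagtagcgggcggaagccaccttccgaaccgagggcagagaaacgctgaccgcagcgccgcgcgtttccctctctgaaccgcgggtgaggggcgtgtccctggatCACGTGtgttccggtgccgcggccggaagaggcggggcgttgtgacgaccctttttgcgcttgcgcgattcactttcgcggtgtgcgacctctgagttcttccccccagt
Nolc1, chr19:46075597-46075896, + strand: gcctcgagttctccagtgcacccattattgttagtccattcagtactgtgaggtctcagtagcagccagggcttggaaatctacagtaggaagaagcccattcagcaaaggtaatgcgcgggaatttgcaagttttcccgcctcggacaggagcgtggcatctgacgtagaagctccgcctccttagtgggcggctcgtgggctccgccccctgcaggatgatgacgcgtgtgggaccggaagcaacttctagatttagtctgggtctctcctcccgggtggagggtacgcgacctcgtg
Polr1b, chr2:129100746-129101045, + strand: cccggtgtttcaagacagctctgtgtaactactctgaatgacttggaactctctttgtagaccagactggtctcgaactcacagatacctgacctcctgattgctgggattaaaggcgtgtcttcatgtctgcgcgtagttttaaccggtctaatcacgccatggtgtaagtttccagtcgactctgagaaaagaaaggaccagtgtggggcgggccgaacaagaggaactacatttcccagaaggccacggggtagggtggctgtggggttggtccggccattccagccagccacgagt
The Nop2 window holds 1 CACGTG, 60 bases before the start, and the Nolc1 and Polr1b windows hold none. Across the list, 4 of 18 windows hold it (22.2%; Nop2, Pes1, Utp20 and Wdr43), against 2349 of all 32851 windows (7.15%). A match is a description of these letters and not a binding site. The list was picked from these data, the windows were not matched for base content or expression, and the difference in share was not tested.

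Both Myc and Mycn, which encode MYC proteins, were called higher over all 15 libraries, and neither was called without Stag2-KO. Myc had 553, 641, 822, 988 and 796 normalized counts in the number 1 libraries of WT siGLO, WT siStag1, Stag1-KO siGLO, Stag2-KO siGLO and Stag2-KO siStag1. The other 10 had 201 to 745 (median 398), and the number 1 library was highest in 4 conditions, the exception being WT siStag1. The log2 fold change was 1.02 (SE 0.21, edgeR adjusted p = 0.00436), and it was 0.53 without Stag2-KO (adjusted p = 0.138). Mycn, the family member prominent in mESCs, was higher by 0.24 (SE 0.06, adjusted p = 0.0144), with 0.21 without Stag2-KO (adjusted p = 0.193). Of 20 DNA replication and S phase genes, 7 were higher and none lower (median 0.054), but 2 were called higher without Stag2-KO (median 0.029) and edgeR called none in the 6 WT libraries alone (5 higher and 0 lower at an unadjusted p under 0.05). They included Ccne1, which encodes cyclin E1 (0.31, SE 0.05, adjusted p = 0.000921), and Mcm4, a subunit of the replicative helicase (0.19, SE 0.04, adjusted p = 0.00724), of which Mcm4 was not called without Stag2-KO (adjusted p = 0.177). Of 20 mitosis genes, 1 was higher and 3 lower (median -0.007), shares of 5% and 15% against 14.3% and 15% of all genes. Without Stag2-KO 2 mitosis genes were lower and none was higher, whereas Stag2-KO alone gave 5 higher and 1 lower, and none was higher without either number 1 library of Stag2-KO.

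Most amino acid uptake genes were higher in number 1, and the mean of the list was above 0 in all 5 conditions. Of 10 amino acid transporters, 8 were called higher and none lower (median 0.399), and Slc1a5 and Slc43a1 were not called. Without Stag2-KO, 6 of the 10 were called (median 0.323), and the 6 WT libraries alone called 6 as well (median 0.321). Slc7a1, the transporter of arginine and lysine, had 2925, 2447, 2186, 2860 and 2355 normalized counts in number 1 in the same order of conditions. The other 10 libraries had 975 to 2071 (median 1600), with no overlap. Its log2 fold change was 0.76 (SE 0.10, edgeR adjusted p = 0.000389), and the difference was larger in Stag2-KO than in WT by 0.63 (adjusted p = 0.0572). Slc7a5, the light chain of the main carrier of large neutral amino acids, was higher by 0.45 (SE 0.07, adjusted p = 0.000948), with no overlap between groups, and its heavy chain Slc3a2 by 0.27 (SE 0.08, adjusted p = 0.0237). The Slc3a2 call was lost without the number 1 library of Stag2-KO siGLO (edgeR adjusted p = 0.113) or of Stag2-KO siStag1 (adjusted p = 0.147). Slc3a2 had 0.07 without Stag2-KO (adjusted p = 0.611) and 0.56 in Stag2-KO alone. Slc6a9, a glycine transporter, was higher by 0.67 (SE 0.16, adjusted p = 0.00818; without Stag2-KO 0.38, adjusted p = 0.221) and Slc1a4, a carrier of neutral amino acids, by 0.63 (SE 0.11, adjusted p = 0.00123).

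Of 20 genes of the ATF4 list of the integrated stress response, 13 were higher and 2 lower (median 0.357). The list mean was -0.075 in WT siStag1 and above 0 in the other 4 conditions, at 0.162 to 0.803. Without Stag2-KO, 4 were higher and 2 lower (median 0.171), and without the number 1 library of Stag2-KO siStag1 6 were higher. Mthfd2, a mitochondrial folate enzyme, had 2743, 2319, 2573, 2506 and 2378 normalized counts in number 1, and 834 to 2078 (median 1719) in the others. The groups did not overlap, and the log2 fold change was 0.74 (SE 0.12, edgeR adjusted p = 0.000877), with 0.49 without Stag2-KO (adjusted p = 0.00259). Atf4 itself was higher by 0.51 (SE 0.15, adjusted p = 0.0265), and the asparagine synthetase gene Asns by 0.22 (SE 0.08, adjusted p = 0.0624). The Atf4 call was lost without the number 1 library of Stag2-KO siGLO (edgeR adjusted p = 0.101) or of Stag2-KO siStag1 (adjusted p = 0.128), and Atf4 had 0.25 without Stag2-KO (adjusted p = 0.437). The Asns call was lost on leaving out any 1 of 6 libraries (adjusted p 0.101 to 0.307, the highest without Stag2-KO siStag1 replicate 1) and without Stag2-KO (adjusted p = 0.11). Trib3, a pseudokinase that ATF4 induces, had 923 and 911 in number 1 of Stag2-KO siGLO and Stag2-KO siStag1, against 302 to 468 in the other Stag2-KO libraries. In WT siGLO and WT siStag1 its number 1 values were 526 and 351, against 333 to 460 in the other WT libraries. The difference between genotypes was 1.20 on the log2 scale (edgeR adjusted p = 0.0158). Chac1, which degrades glutathione, and Slc7a11, the cystine importer, were higher by 1.02 (SE 0.38, adjusted p = 0.0666) and 0.91 (SE 0.26, adjusted p = 0.0216). Without the number 1 library of Stag2-KO siStag1 neither was called (edgeR adjusted p = 0.375 for Chac1 and 0.151 for Slc7a11), nor without Stag2-KO (adjusted p = 0.861 and 0.249), and Chac1 also lost its call on leaving out any 1 of 4 other Stag2-KO libraries. The 2 lower members were Ddit4, described below, and Ddit3, which encodes the stress factor CHOP (-0.52, SE 0.19, adjusted p = 0.0612). Ddit3 lost its call on leaving out any 1 of 5 WT or Stag1-KO libraries (adjusted p 0.103 to 0.182), and it had -0.85 without Stag2-KO (adjusted p = 0.0288). Chaperones of the endoplasmic reticulum showed 1 gene higher and 2 lower of 15 (6.67% and 13.3%, against 14.3% and 15% of all genes; median 0.023), and without Stag2-KO edgeR called none, with 2 higher and 0 lower at an unadjusted p under 0.05. The 1 higher was lost on leaving out any 1 of 9 libraries (WT siGLO 1 or 3, WT siStag1 2, Stag1-KO siGLO 2, Stag2-KO siGLO 1 or 3, or Stag2-KO siStag1 1, 2 or 3), and the lower count was 1 on leaving out any 1 of 5 (WT siStag1 3, Stag2-KO siGLO 1 or 3, or Stag2-KO siStag1 1 or 2). Of 10 threonine, serine and glycine enzymes, 4 were higher and none lower (median 0.113), among them Tdh, the threonine dehydrogenase typical of mESCs (0.26, SE 0.08, adjusted p = 0.0401). Without Stag2-KO edgeR called none of the 10 (median 0.055), with 3 higher and 0 lower at an unadjusted p under 0.05. Tdh had 0.14 there (adjusted p = 0.335), and its call was lost without the number 1 library of Stag2-KO siStag1 (adjusted p = 0.244). Of 11 NRF2 and redox genes, 7 were higher (median 0.205), led by Hmox1 (heme oxygenase; 0.41, SE 0.10, adjusted p = 0.00893) and Nqo1 (0.36, SE 0.12, adjusted p = 0.0415), but 1 of the 11 was called without Stag2-KO, and it was neither Hmox1 (adjusted p = 0.237) nor Nqo1 (adjusted p = 0.855). Without either number 1 library of Stag2-KO 3 were called, and Nqo1 was not (adjusted p = 0.225 without that of siGLO and 0.189 without that of siStag1).

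Most genes of the hypoxia response list were lower in number 1 libraries. Of 16 genes, 12 were called lower and none higher (median -0.516), and without Stag2-KO 10 were called lower (median -0.545). Without Stag1-KO siGLO replicate 1, 1 was called higher. Mean differences over the list were -0.588 in WT siGLO, -0.484 in WT siStag1, -0.571 in Stag1-KO siGLO, -0.304 in Stag2-KO siGLO and -0.323 in Stag2-KO siStag1, on the log2 CPM scale. The list was thus below 0 in all 5 conditions, with the smallest values in Stag2-KO. Numbers 2 and 3 were not alike, and number 3 was highest in every condition but Stag2-KO siStag1. Centred on condition, list means of numbers 1, 2 and 3 were -0.392, 0.016 and 0.375 in WT siGLO. In Stag2-KO siStag1 they were -0.215, 0.187 and 0.028. Bnip3, a mitophagy receptor, was lower by 0.58 (log2 fold change -0.58, SE 0.09, edgeR adjusted p = 0.000764), and Egln3, an oxygen-sensing prolyl hydroxylase, had -0.57 (SE 0.09, adjusted p = 0.00079). Pfkfb3, an activator of glycolysis, had -0.72 (SE 0.11, adjusted p = 0.000764) and Vegfa -0.38 (SE 0.14, adjusted p = 0.0628), a call lost on leaving out any 1 of 5 WT or Stag1-KO libraries (adjusted p 0.105 to 0.197). Hif1a, which encodes the oxygen-regulated subunit of HIF-1, had 0.07 (SE 0.07, adjusted p = 0.491). Adm, the peptide hormone adrenomedullin, showed a difference between genotypes. Its number 1 counts were 12.1, 18.6 and 15.7 in WT siGLO, WT siStag1 and Stag1-KO siGLO, where the other 6 libraries had 53.1 to 91.3. In Stag2-KO siGLO and Stag2-KO siStag1 they were 42.2 and 102, against 52.7 to 121 in the other 4. The Stag2-KO minus WT difference of the number 1 term was 1.78 (edgeR adjusted p = 0.0152).

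Among called genes with a mean of at least 50 normalized counts and the number 1 library lowest in all 5 conditions, Bhlhe40, Ccng2 and Bhlhe41 had the largest falls. Adm followed (-1.23), then Ppp1r3b, a subunit that targets phosphatase 1 to glycogen, the glutamate receptor gene Grin1 and Ndufa4l2, a HIF target (-1.21 each), and Adssl1 (-1.20). Ccng2 (chr5:93267257-93276231, mm10), which encodes the growth-restraining cyclin G2, had 234, 231, 181, 247 and 257 normalized counts in number 1 of WT siGLO, WT siStag1, Stag1-KO siGLO, Stag2-KO siGLO and Stag2-KO siStag1. The other 10 libraries had 496 to 771 (median 663), and the log2 fold change was -1.46 (SE 0.12, edgeR adjusted p = 3.39e-06). No Ccng2 value of number 1 reached the lowest of the others. Bhlhe40 (chr6:108660629-108666925), a transcriptional repressor of the circadian and hypoxia responses, had 465, 605, 542, 475 and 368 in number 1. The others had 729 to 2364 (median 1299), and the log2 fold change was -1.50 (SE 0.15, adjusted p = 4.92e-05). Its relative Bhlhe41 had -1.29 (SE 0.20, adjusted p = 0.000754), also with no overlap between groups. Ddit4 (chr10:59949669-59951834), the largest fall of the ATF4 list, encodes REDD1, an inhibitor of the growth kinase complex mTORC1, and had 1688, 2237, 2165, 1840 and 1829 in number 1. The others had 3198 to 6599 (median 4097), with no overlap, and the log2 fold change was -1.13 (SE 0.12, adjusted p = 8.82e-05). Ccng2, Bhlhe40 and Bhlhe41 were picked for being lowest in number 1 of every condition, and Ddit4, picked from its list, was lowest there too. Without Stag2-KO the differences were -1.58 for Ccng2, -1.74 for Bhlhe40, -1.21 for Bhlhe41 and -1.26 for Ddit4, each past the threshold.

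**Figure D3:**
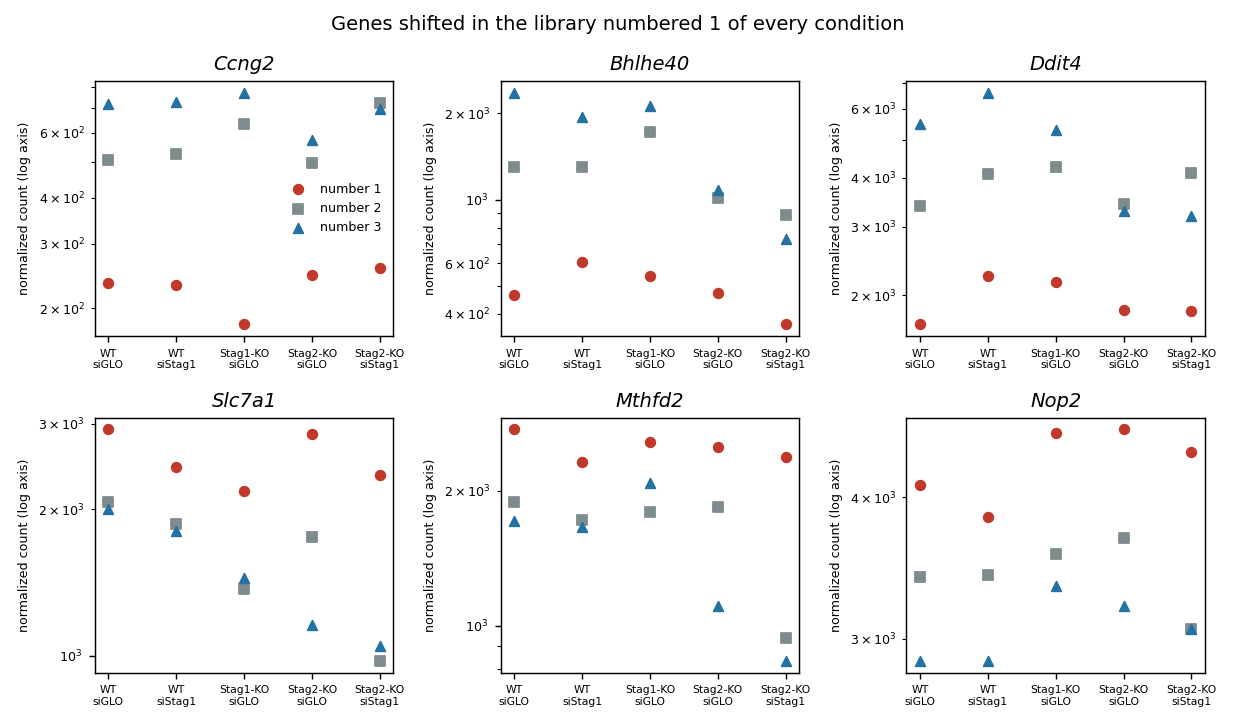
Normalized counts (y axes, log scale) of 6 genes in each of the 15 libraries by condition (x axes), with colour and shape for the replicate number. Ccng2, Bhlhe40 and Ddit4 are lowest and Slc7a1, Mthfd2 and Nop2 highest in the number 1 library of all 5 conditions.

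Of 16 glycolysis genes, 8 were called lower, 1 was called higher and 7 were not called (median -0.17). Without Stag2-KO 4 were called lower and none higher (median -0.186). Those 8 included the glucose transporter Slc2a3 (-0.62, SE 0.11, edgeR adjusted p = 0.00149), the aldolase Aldoc (-0.80, SE 0.11, adjusted p = 0.000519) and the hexokinase Hk1 (-0.42, SE 0.09, adjusted p = 0.00547). Hk2 (-0.06, SE 0.07, adjusted p = 0.572) and Ldha (-0.09, SE 0.06, adjusted p = 0.29) were not called. The gene called higher was Pdk1, a kinase that restrains pyruvate dehydrogenase (0.13, SE 0.05, adjusted p = 0.0958). Pdk1 had 0.01 without Stag2-KO (adjusted p = 0.959), and its call was lost on leaving out any 1 of 10 libraries (adjusted p 0.102 to 0.399). Nuclear-encoded respiratory chain genes showed 6 of 75 higher (8%, against 14.3% of all genes) and none lower (median 0.038), and the list mean was -0.176 in WT siStag1 and above 0 in the other 4 conditions. The 6 included Atp5g1, a subunit of ATP synthase (0.29, SE 0.07, adjusted p = 0.0132). Without Stag2-KO none was higher and 1 was lower by edgeR (median -0.014), with 2 higher and 2 lower at an unadjusted p under 0.05, and Atp5g1 had 0.14 (adjusted p = 0.383). Stag2-KO alone gave 25 of 75 higher and none lower, against 18.9% of all genes higher there. The count of 6 was 17 without WT siStag1 replicate 1, 3 without WT siGLO replicate 1 or Stag2-KO siGLO replicate 1, and 2 without Stag2-KO siStag1 replicate 1, and 1 was lower without Stag2-KO siGLO replicate 1 or 2.

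Most sterol and lipid synthesis genes were lower in number 1, with both list means below 0 in all 5 conditions. Of 24 cholesterol synthesis and uptake genes, 19 were called lower and none higher (median -0.25), and 12 were lowest in number 1 in all 5 conditions. Without Stag2-KO, 8 were called lower (median -0.204), as were 13 without the number 1 library of Stag2-KO siStag1. Hmgcs1, the HMG-CoA synthase of the pathway, had 6299, 7181, 5544, 3975 and 4714 normalized counts in number 1 of WT siGLO, WT siStag1, Stag1-KO siGLO, Stag2-KO siGLO and Stag2-KO siStag1. The others had 5035 to 7976 (median 7444). The groups overlapped, but number 1 was lowest in all 5 conditions, and the log2 fold change was -0.33 (SE 0.05, edgeR adjusted p = 0.000921). Insig1, which retains SREBP in the endoplasmic reticulum, had -0.39 (SE 0.08, adjusted p = 0.00345). Stard4, a sterol carrier, had -0.45 (SE 0.07, adjusted p = 0.000921). The methylsterol oxidase gene, listed under its older symbol Sc4mol, had -0.44 (SE 0.06, adjusted p = 0.000519). Srebf2, which encodes the sterol-regulated factor itself, had -0.15 (SE 0.06, adjusted p = 0.0908), a call lost on leaving out any 1 of 10 libraries (adjusted p 0.112 to 0.381) and without Stag2-KO (adjusted p = 0.235). Of 11 fatty acid synthesis genes, 7 were lower and none higher (median -0.283), against 3 lower without Stag2-KO (median -0.19) and 2 in the 6 WT libraries alone. The count higher was 1 without Stag1-KO siGLO replicate 1 and 2 without Stag1-KO siGLO replicate 2. The 7 included the desaturases Scd1 (-0.65, SE 0.10, adjusted p = 0.000754), Scd2 (-0.40, SE 0.09, adjusted p = 0.00501) and Fads2 (-0.43, SE 0.08, adjusted p = 0.00174), whereas the fatty acid synthase gene Fasn had -0.03 (SE 0.06, adjusted p = 0.793). Scd2 had -0.32 without Stag2-KO (adjusted p = 0.101).

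Of 22 lysosomal genes, 11 were called lower, none higher and 11 were not called (median -0.142). Lamp2, a membrane protein of lysosomes, had 1040, 1001, 887, 790 and 568 normalized counts in number 1, in the same order of conditions. The others had 1090 to 1453 (median 1332), with no overlap, and the log2 fold change was -0.61 (SE 0.10, edgeR adjusted p = 0.000877). The glycosidase genes Neu1 (-0.59, SE 0.09, adjusted p = 0.000877) and Hexa (-0.57, SE 0.10, adjusted p = 0.00123) followed. Tfeb, which encodes a driver of lysosomal genes, was not called (-0.03, SE 0.09, adjusted p = 0.827). Without Stag2-KO, 3 of the 22 were called, with a median of -0.108, and in the 6 WT libraries alone edgeR called none (median -0.137, 0 higher and 8 lower at an unadjusted p under 0.05). The list mean was below 0 in all 5 conditions. Without the number 1 library of Stag2-KO siStag1 5 were called lower, and without that of Stag2-KO siGLO 6.

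**Figure D4:**
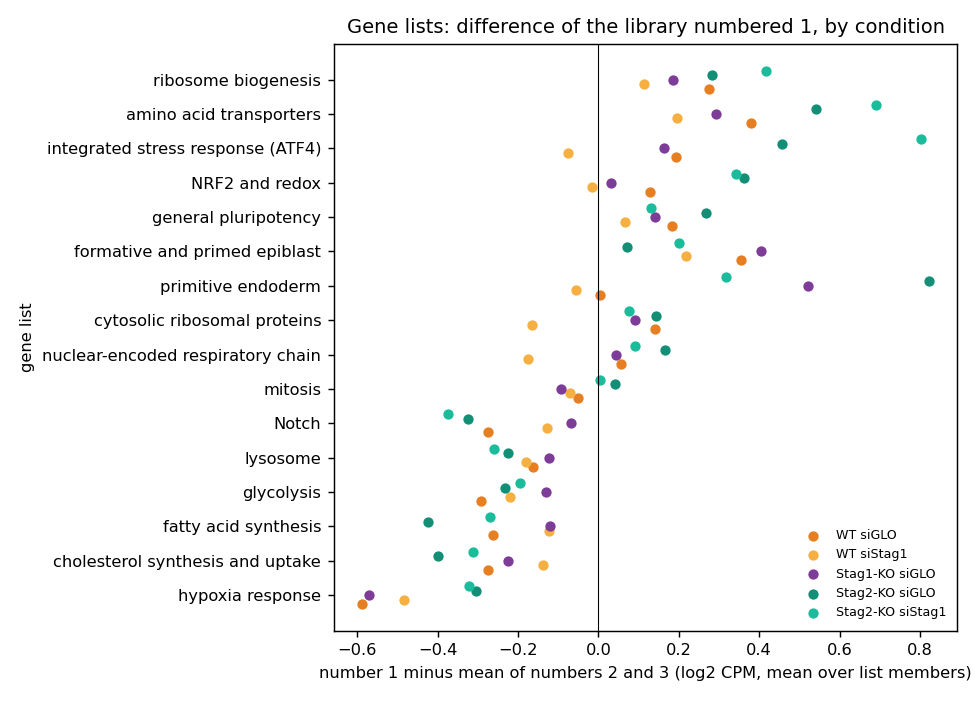
Mean over the members of each gene list (y axis) of number 1 minus the mean of numbers 2 and 3 in log2 CPM (x axis), with 1 point for each condition. Hypoxia, cholesterol, fatty acid, glycolysis, lysosome and Notch lists are below 0 and ribosome biogenesis and amino acid transporters above 0 in all 5 conditions, while primitive endoderm ranges from -0.056 to 0.823.

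Pluripotency genes split. Of 10 general pluripotency genes, 7 were higher and 1 lower (median 0.252). Pou5f1, which encodes OCT4, had 21491, 19277, 16776, 23911 and 19451 normalized counts in number 1 and 13150 to 19660 (median 17907) in the others, and the log2 fold change was 0.23 (SE 0.06, edgeR adjusted p = 0.0153), with 0.10 without Stag2-KO (adjusted p = 0.438). Dppa2, a chromatin factor of mESCs, was higher by 0.63 (SE 0.11, adjusted p = 0.00155), and Sox2 was not called (-0.01, SE 0.06, adjusted p = 0.954). The gene called lower was Nanog (-0.49, SE 0.19, edgeR adjusted p = 0.0797), a call lost with DESeq2 (adjusted p = 0.141) and without either number 1 library of Stag2-KO (0.245 and 0.273) or any 1 of 5 other libraries (0.106 to 0.114). Nanog had 2535 and 586 in number 1 of Stag2-KO siGLO and Stag2-KO siStag1, against 4875 to 4903 and 2177 to 2338 in the other libraries of those conditions. In WT siGLO and WT siStag1 it had 5589 and 3530, against 3366 to 5004 in the others. The number 1 term differed between Stag2-KO and WT by -1.52 (edgeR adjusted p = 0.000192), and without Stag2-KO the log2 fold change was 0.00 (adjusted p = 0.998). Of 15 naive pluripotency genes, 5 were higher and 1 lower (median 0.00). The lower gene was Dppa3, a maternal factor also known as Stella (-0.31, SE 0.09, adjusted p = 0.0281), a call lost without Stag1-KO siGLO replicate 1 (adjusted p = 0.118) and without Stag2-KO (adjusted p = 0.137). Nr0b1 was higher by 0.55 (SE 0.10, adjusted p = 0.00173) and Klf5 by 0.34 (SE 0.08, adjusted p = 0.00939; without Stag2-KO 0.17, adjusted p = 0.285), while Klf4 (-0.11, SE 0.10, adjusted p = 0.448) and Esrrb (-0.04, SE 0.09, adjusted p = 0.774) were not called. Without Stag2-KO, 3 general and 2 naive genes were called higher and none lower, and without the number 1 library of Stag2-KO siStag1 4 general genes were higher. Stag2-KO alone gave 5 of 15 naive genes higher and 5 lower, and 6 of 10 general genes higher and 1 lower. All genes there had 18.9% higher and 20% lower.

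Of 14 formative and primed epiblast genes, 6 were higher and 1 lower (median 0.136), and those 6 were highest in number 1 in all 5 conditions. Without Stag2-KO, 7 were called higher and none lower (median 0.347), whereas the 6 Stag2-KO libraries alone gave 7 higher and 5 lower (median 0.079). Foxd3, a forkhead factor that works as naive cells leave their state, had 609, 466, 679, 1079 and 1158 normalized counts in number 1 and 245 to 568 (median 363) in the others. Its log2 fold change was 1.05 (SE 0.14, edgeR adjusted p = 0.000519). Pou3f1, a POU factor of the epiblast, was higher by 0.55 (SE 0.09, adjusted p = 0.000764), whereas Otx2 was not called (-0.05, SE 0.12, adjusted p = 0.809). The DNA methyltransferase genes Dnmt3a (0.61, SE 0.08, adjusted p = 0.000378) and Dnmt3b (0.29, SE 0.06, adjusted p = 0.00625) were higher, and so was their cofactor Dnmt3l (0.69, SE 0.09, adjusted p = 0.000259).

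Of 16 primitive endoderm genes, 9 were higher and none lower by edgeR (median 0.295), and DESeq2 gave the same counts. Without Stag2-KO edgeR called none of the 16 (median 0.141), with 1 higher and 0 lower at an unadjusted p under 0.05. Without the number 1 library of Stag2-KO siGLO it called 3, and without that of Stag2-KO siStag1 5. The mean difference was 0.004 in WT siGLO and -0.056 in WT siStag1, against 0.521 in Stag1-KO siGLO, 0.823 in Stag2-KO siGLO and 0.318 in Stag2-KO siStag1. Gata6, a master factor of the lineage, had 64.8 in number 1 of Stag1-KO siGLO against 31.6 and 37.9. It had 173 in Stag2-KO siGLO against 61.1 and 62.4, and 121 in Stag2-KO siStag1 against 49.8 and 73.7. In WT siGLO and WT siStag1 it had 495 and 590, against 425 to 580 in the others, so number 1 was highest in WT siStag1 and between the others in WT siGLO. The log2 fold change of Gata6 was 0.60 (SE 0.17, edgeR adjusted p = 0.0183) and the Stag2-KO minus WT difference 1.16 (adjusted p = 0.0135), and without Stag2-KO Gata6 had 0.21 (adjusted p = 0.425). Sox17, another factor of the lineage, was not called over all libraries (0.30, SE 0.20, adjusted p = 0.299) but differed between genotypes by 1.29 (adjusted p = 0.0186). The summed level of the 16 genes was 19900 to 66000 normalized counts in number 1 and 13600 to 66000 in the others. In these bulk samples, more cells of a type and more RNA per cell cannot be told apart. Of 10 trophoblast genes tested, edgeR called none in either direction, and 0 passed an unadjusted p under 0.05 or the threshold with DESeq2. Without Stag2-KO edgeR again called none, with 0 higher and 1 lower at an unadjusted p under 0.05. Stag2-KO alone gave 2 of the 10 higher and 2 lower (median 0.399), against 18.9% and 20% of all genes there. WT alone gave none called, with 0 higher and 5 lower at an unadjusted p under 0.05 (median -0.245). The number 1 term differed between Stag2-KO and WT at 3 of the 10, so the fit over all 15 libraries joins shifts that differ by genotype. Of 13 fibroblast markers in the files, all but Lum and Fap had a mean above 1 normalized count, and their summed level was 727 to 1350 in number 1 and 763 to 1170 in the others. Among the 8 tested, 1 was higher and 3 lower (12.5% and 37.5%, against 14.3% and 15% of all genes), and without Stag2-KO edgeR called none, with 0 higher and 1 lower at an unadjusted p under 0.05. The 3 were not called without the number 1 library of Stag2-KO siStag1, nor the 1 on leaving out any 1 of the 6 Stag2-KO libraries.

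Of the 7 two-cell-like genes tested, 5 were higher (median 0.814), and without Stag2-KO 3 of 6 tested were (median 1.29). Zscan4c, of a gene family that marks the state, had 227 in number 1 of WT siGLO against 68.0 and 86.9, and 67.5 in WT siStag1 against 37.6 and 49.6. In Stag1-KO siGLO it was at 3.93 against 2.91 and 12.6. The log2 fold change was 0.81 (SE 0.24, edgeR adjusted p = 0.0232), and without the WT siGLO number 1 library none of the 7 genes was called (Zscan4c adjusted p = 0.183). Zscan4 genes are near-identical copies, so how their shared reads were counted is uncertain.

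Of 13 Notch genes, 6 were lower and none higher (median -0.201), but 1 was called lower without Stag2-KO (median -0.183). Without the number 1 library of Stag2-KO siStag1 2 were called, and 3 without that of Stag2-KO siGLO or of WT siGLO, and 1 was higher without Stag2-KO siGLO replicate 3. The 6 included the target Hes1 (-0.63, SE 0.12, edgeR adjusted p = 0.00241) and the receptor Notch3 (-0.57, SE 0.12, adjusted p = 0.00408). Notch3 had -0.27 without Stag2-KO (adjusted p = 0.121) and differed between genotypes by -0.75 (adjusted p = 0.0199). Of 13 ERK feedback and target genes, 6 were higher and 2 lower. Without Stag2-KO edgeR called none higher and 2 lower, with 4 higher and 2 lower at an unadjusted p under 0.05, and the 6 WT libraries alone called none higher and 1 lower. The lower count was 1 on leaving out any 1 of 10 libraries (WT siGLO 1, 2 or 3, WT siStag1 2, Stag1-KO siGLO 3, Stag2-KO siGLO 1 or 3, or Stag2-KO siStag1 1, 2 or 3). Etv4 was among the former (0.65, SE 0.14, adjusted p = 0.00534) and Ier3 among the latter (-1.15, SE 0.18, adjusted p = 0.000877). Etv4 had 0.23 without Stag2-KO (adjusted p = 0.196) and differed between genotypes by 1.08 (adjusted p = 0.00505). Socs3, the feedback inhibitor of LIF signalling, was lower by 0.52 (log2 fold change -0.52, SE 0.08, adjusted p = 0.000877) and lowest in number 1 in all 5 conditions, within a LIF and STAT3 list of 10 with 1 gene higher and 3 lower (10% and 30%, against 14.3% and 15% of all genes). Without Stag2-KO that list had none higher and 2 lower, and 1 was lower without the number 1 library of Stag2-KO siGLO. It had 2 higher on leaving out WT siGLO 1, WT siStag1 2, Stag2-KO siGLO 2 or Stag2-KO siStag1 3. Of 18 interferon and antigen presentation genes, 2 were higher and 6 lower (11.1% and 33.3%, against 14.3% and 15% of all genes; median -0.229). Without Stag2-KO none of 16 tested was higher and 2 were lower (median 0.052), with 2 higher and 4 lower at an unadjusted p under 0.05, and edgeR called none in the 6 WT libraries alone (2 higher and 2 lower at an unadjusted p under 0.05). The higher count was 1 on leaving out any 1 of 12 libraries, which were all but WT siGLO 2 and WT siStag1 1 and 2. Of 10 cohesin and CTCF genes, 1 was called (10% higher and 0% lower, against 14.3% and 15% of all genes), Ctcf (0.12, SE 0.05, adjusted p = 0.0695), a call lost without Stag2-KO (adjusted p = 0.49) and on leaving out any 1 of 7 libraries (adjusted p 0.106 to 0.215). The count of cohesin and CTCF genes higher was 3 without Stag1-KO siGLO replicate 1 or 2 or WT siStag1 replicate 2 and 3 in Stag2-KO alone, and 1 was lower without WT siStag1 replicate 1.

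Among called genes with a mean of at least 50 normalized counts and the number 1 library highest in all 5 conditions, Wt1 and Col6a5 had the largest rises. Wt1, a zinc finger transcription factor, had 104, 174, 75.6, 402 and 948 normalized counts in number 1 of WT siGLO, WT siStag1, Stag1-KO siGLO, Stag2-KO siGLO and Stag2-KO siStag1, and 29.4 to 289 (median 59.1) in the others. Its log2 fold change was 1.64 (SE 0.24, edgeR adjusted p = 0.000579). Col6a5, a collagen VI chain, had 137, 151, 120, 286 and 347 in number 1 and 34.8 to 102 (median 76.2) in the others, and the log2 fold change was 1.39 (SE 0.20, adjusted p = 0.000556). Col6a5 did not overlap between the groups, and Wt1 did. The inflammasome gene Nlrc4 (1.08), Foxd3 (1.05), described above, Synpo2l (1.04), Fetub (1.03), Tchh (1.02) and the egg coat gene Zp3 (0.97) followed on the log2 scale.

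Some genes differed by number in Stag2-KO by more than in WT. Acta2, smooth muscle actin, had 1336 and 807 normalized counts in number 1 of Stag2-KO siGLO and Stag2-KO siStag1, where the other 4 libraries had 52.5 to 287. WT siGLO and WT siStag1 had 125 and 102 in number 1 and 144 to 222 in the others, and the 3 Stag1-KO libraries had 561 to 799. The difference of the number 1 term was 3.53 (edgeR adjusted p = 0.000192). Anxa1, chosen after its values were seen as were the next 4, encodes annexin A1 and differed by 3.38 (adjusted p = 0.000416). It had 231 and 247 in number 1 of the Stag2-KO conditions against 21.1 to 43.0, 53.5 and 61.6 in WT against 56.0 to 98.4, and 297 to 398 in Stag1-KO. S100a6, a calcium-binding protein, differed by 2.44 (adjusted p = 0.000976) in the same direction. Psmb8, an immunoproteasome subunit, differed by -3.24 (adjusted p = 0.00377), the neural factor Sox1 by -2.60 (adjusted p = 0.0045) and Trim67 by -2.53 (adjusted p = 0.000416). Of the 871 genes, 792 had the larger mean difference in Stag2-KO, and 570 had opposite signs in Stag2-KO and WT. The 871 were selected for this difference, which favours opposite signs. Over all genes tested, the median absolute difference was 0.239 in Stag2-KO siGLO and 0.251 in Stag2-KO siStag1. It was 0.183 in WT siGLO, 0.142 in WT siStag1 and 0.19 in Stag1-KO siGLO.

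**Figure D5:**
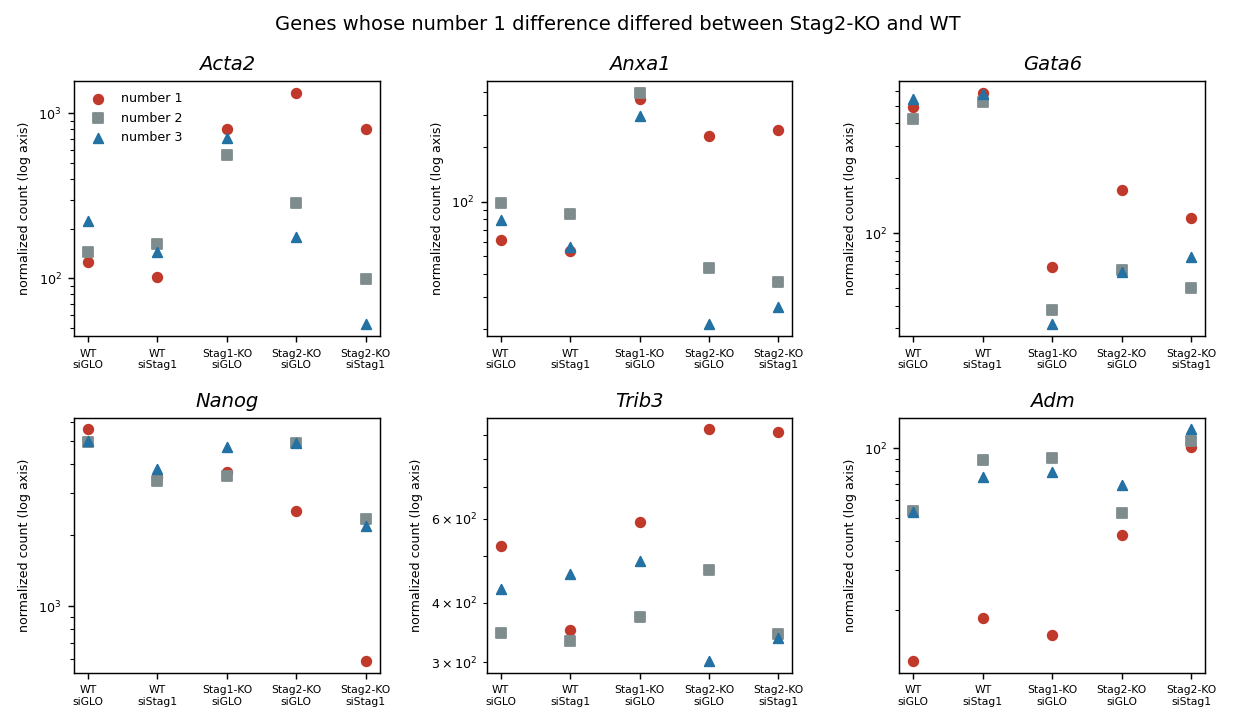
Normalized counts (y axes, log scale) of 6 genes in each library by condition (x axes), with colour and shape for the replicate number. Acta2, Anxa1, Gata6 and Trib3 are raised and Nanog is lowered in the number 1 libraries of Stag2-KO, while Adm is lowered mainly in WT and Stag1-KO. Number 1 of Stag1-KO also has the highest value of its condition for Gata6 (64.8 against 31.6 and 37.9) and Trib3 (589 against 373 and 489).

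Numbers 2 and 3 also differed, with a count that changed with single libraries. In the fit with 3 levels of the number, 103 genes were higher in number 2 (0.71% of 14508) and 102 were lower (0.703%) by edgeR. In that fit 2303 genes differed between numbers 1 and 2 and 4973 between 1 and 3, comparisons that share the number 1 libraries. At an unadjusted p under 0.05, 2213 genes differed between numbers 2 and 3. Of the 205 called between numbers 2 and 3, 111 were also called between number 1 and the others. Of these, 64 were higher and 47 lower in the lower number of both comparisons, and 0 had opposite directions. The largest called differences with the same order in all 5 conditions were in Nlrc4 (0.88, edgeR adjusted p = 0.0856), Sowahb (0.88, adjusted p = 0.0938), Lgals3 (0.72, adjusted p = 0.0638) and Rab25 (0.69, adjusted p = 0.0729), higher in number 2. D7Ertd143e (-0.98, adjusted p = 0.0381), Tgfbi (-0.97, adjusted p = 0.0381), Ggt7 (-0.82, adjusted p = 0.0439) and Tmem145 (-0.79, adjusted p = 0.0897) were lower. Of the 21 ribosome biogenesis genes, 4 were called higher in number 2 than in number 3 (median 0.104), and the medians of the hypoxia and cholesterol lists were -0.11 and -0.064.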

How the data were processed

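RNA-seq with polyA enrichment was used from 15 mESC libraries, 3 replicates in each of 5 conditions, whose groups and replicate numbers come from the sample titles. The deposited values are counts of reads per gene that the authors made from STAR alignments to mm10, with no normalization (names of tool and build from the submitters' processing notes). The counting tool, its annotation and its strand setting are not given in the sources used here, so overlapping and antisense genes are uncertain. The summary lines that name no gene stayed out of library sizes and tests. They held 9.784% to 13% of a library's fragments without a feature, 3.8% to 4.502% multimapping, 1.921% to 2.077% ambiguous and 4.015% to 4.79% unmapped.

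The edgeR quasi-likelihood test (version 4.0.16 under R 4.3.3) was two-sided, on genes kept by filterByExpr with condition as the group (a count of 10 and a total of 15 as minima), with TMM scaling, Benjamini-Hochberg adjustment over all genes tested and a threshold of 0.1. The design held a term for each condition and a term for replicate number 1. A design with 3 levels of the number compared 2 with 3, and a design with a number 1 term in each condition compared those terms. Residual degrees of freedom were 9, 8 and 5. The SE is the absolute log2 fold change divided by the square root of F. Normalized counts are counts over the TMM-scaled library size at a common depth, and log2 CPM used a prior count of 2.

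Members and gene lists were chosen with earlier results of these data known, and lists are described by counts and medians only. Genes named are the 8 largest rises and 8 largest falls among called genes with the number 1 library outside both others in all 5 conditions and a mean normalized count of at least 50. Added to these are up to 3 called members of a list in each direction with a mean of at least 20, further members needed for their role, Stag1, Stag2, Pou5f1, Sox2 and Nanog, and the 4 largest each way between numbers 2 and 3 with the same order in all 5 conditions. Alternatives were DESeq2 1.42.0, other scalings and filters, an adjusted p under 0.05, other codings of the number, no condition term, offsets for GC content and length, and left-out libraries or conditions, of which 3 were chosen after seeing the data. The statistical scripts were tested on simulated data. Replicates were compared for deposited duplicates, and all 15 within-condition pairs differed beyond sampling noise (chi-square over degrees of freedom 4.52 to 25.2). At this depth 3 counts correspond to 0.157 to 0.200 CPM, which covers counting error only. Gene positions use GENCODE M21 on mm10, matched for 98.5% of the gene names. Plots used matplotlib 3.10.9 (Python 3.11.15). Some genes that the naming rule would give are not reported here.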

Additional observations from a re-analysis of the deposited data

Results flagged for a closer look

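Of 62 groups of values looked at for a single sample far from the others, 5 held one, where chance gives about 1 in 20. The share of multimapping reads was 3.8% in Stag1-KO siGLO replicate 1, against 4.378% to 4.417% in the other number 1 libraries. The share of unmapped reads was 4.79% in Stag1-KO siGLO replicate 2, against 4.015% to 4.422% in the other libraries numbered 2 and 3. Among mean list differences on the log2 CPM scale, threonine, serine and glycine enzymes stood at 0.282 in Stag2-KO siStag1 (0.047 to 0.109 in the other conditions). Cytosolic ribosomal proteins stood at -0.165 in WT siStag1 (0.077 to 0.143 in the others). Cohesin and CTCF genes stood at -0.118 in Stag1-KO siGLO (0.032 to 0.093 in the others).

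The number 1 difference itself differed among the 5 conditions at 230 genes and between Stag2-KO and WT at 871 genes by edgeR at an adjusted p under 0.1. Among the named genes, of which Anxa1, Psmb8, S100a6, Sox1 and Trim67 were chosen after their values were seen, the Stag2-KO minus WT value on the log2 scale was above 0 for Adm 1.78, Dppa4 0.58, Utf1 0.69, Klf5 0.49, Pou3f1 0.61, Gata6 1.16, Cubn 0.55, Col4a2 0.77, Col3a1 4.58, Etv4 1.08, Phlda1 0.83, Zfp36 0.9, Rarg 0.55, Hspb1 0.46, Plk2 1.1, Nqo1 0.82, Mt2 1.16, Slc7a1 0.63, Atp5g1 0.44, Acta2 3.53, Dnmt3l 0.6, Phlda2 0.62, Trib3 1.2, Slc3a2 0.49, Sox17 1.29, Anxa1 3.38 and S100a6 2.44. It was below 0 for Nanog -1.52, Tead2 -0.47, Fgf8 -3.05, Tubb3 -0.64, Dhrs3 -2.25, Crabp2 -1.15, Notch3 -0.75, Sc4mol -0.37, Slc2a3 -0.83, Lamp2 -0.73, Mmp2 -0.71, Plagl1 -1.24, Nnat -0.72, Tfeb -0.61, Esrrb -0.49, Psmb8 -3.24, Sox1 -2.6 and Trim67 -2.53. Col3a1 and Fgf8 had low counts in WT, so their values are uncertain. Col3a1 had 4.67 and 1.16 normalized counts in number 1 of WT siGLO and WT siStag1, and 7.72 to 14.5 in the other WT libraries. Fgf8 had 13.1 and 18.6 in number 1 of WT siGLO and WT siStag1, and 0 to 24.1 in the other WT libraries.

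For 9 gene lists both WT conditions moved one way and both Stag2-KO conditions the other way, and this difference was not tested. The Stag2-KO minus WT value of the mean difference in log2 CPM was above 0 for trophoblast 0.457, ERK feedback and targets 0.495, immediate early genes 0.345, p53 targets 0.345, mitosis 0.083 and actin, SRF and YAP targets 0.483. It was below 0 for NODAL ligands and targets -0.49, ER chaperones and unfolded protein response -0.083 and interferon and antigen presentation -0.411. Lists above 0 were below 0 in WT and above 0 in Stag2-KO, and the others the reverse. Without Stag2-KO, edgeR called 0 of 15 p53 targets higher and 5 lower, and 0 of 11 immediate early genes higher and 4 lower (all genes 3.31% and 2.62%). Stag2-KO alone gave 4 higher and 1 lower, and 5 higher and 2 lower (all genes 18.9% and 20%).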

How the results depend on the processing

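The 4244 genes that differed between number 1 and numbers 2 and 3 became 4168 with DESeq2 and 4233 with its size factors in edgeR, 4401 with library size alone, 4177 without the expression filter and 4010 with 10 counts in every library. Against number 2 alone there were 2303. There were 564 without the condition term, 2630 without the libraries of Stag2-KO siGLO and 1877 without those of Stag2-KO siStag1. Alternatives chosen after seeing the data gave 836 without the 6 libraries of Stag2-KO, 373 for the 6 WT libraries alone and 5409 for the 6 Stag2-KO libraries alone. Leaving out 1 library gave 2194 (without Stag2-KO siStag1 replicate 1) to 4564, and 2675 without Stag2-KO siGLO replicate 1. The 205 genes between numbers 2 and 3 became 630 with DESeq2, 307 without the filter, 65 at an adjusted p under 0.05, and 5 (without Stag2-KO siGLO replicate 2) to 663 (without Stag2-KO siStag1 replicate 2) without 1 library. That count was 6 without WT siGLO replicate 3 or Stag1-KO siGLO replicate 2, 10 and 11 without WT siStag1 replicates 2 and 3, 19 without WT siGLO replicate 2, 21 without Stag2-KO siGLO replicate 3 and 125 without Stag1-KO siGLO replicate 3. It also grew over 1.5 times without Stag1-KO siGLO replicate 1, and was 376 without Stag2-KO siGLO replicate 1, and 355 and 312 without Stag2-KO siStag1 replicates 1 and 3. The 230 genes that differed among conditions became 363 with DESeq2, 1163 without the filter and 95 at an adjusted p under 0.05. The 871 that differed between genotypes became 609 with DESeq2, 1457 without the filter, 461 at an adjusted p under 0.05, and 442 (without Stag2-KO siStag1 replicate 3) to 1093 without 1 library. Leaving out the number 1 library of a WT or Stag2-KO condition could not be fitted for that contrast. With library size alone, 31.2% of the calls between numbers 2 and 3 and 26.1% of those between genotypes were higher. The cause of these changes was not tested.

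Of the values of 199 named genes under the alternatives, 5673 kept direction and side of the threshold, 1027 kept direction but lost the call, 31 gained one, and 22 changed sign with a call in either fit. All 22 came from fits on some of the conditions. Without Stag2-KO the log2 fold changes were Col3a1 -0.513, Plk2 -0.009, Acta2 -0.163 and Anxa1 -0.209. In Stag2-KO alone they were Tubb3 -0.066, Ddit3 0.023, Eda2r 0.003 and Vegfa 0.041. In WT alone they were Nanog 0.078, Utf1 -0.019, Col4a2 -0.057, Fgf8 0.338, Phlda1 -0.07, Dhrs3 0.052, Crabp2 0.041, Plk2 -0.132, Pdk1 0, Cdc20 -0.004, Acta2 -0.563, Anxa1 -0.468, S100a6 -0.143 and Trim67 0.161. No paired analysis was possible because the replicate number is itself what was compared, with condition already the block. Single clones, 1 number 1 library per condition and a number of unstated meaning limit what these counts describe.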
